A study of Homo sapiens with 6 samples.

Results

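The regions described are all the 6mA peaks that lay on human chromosome 17, taken by their chromosome name from the peak lists of 4 immunoprecipitated libraries. They numbered 914 and 974 of 30451 and 33410 peaks from the 2 control samples, and 1301 and 1346 of 38847 and 40844 peaks in the 2 si-N6AMT1 libraries. Overlapping peaks of the 4 libraries were merged into regions, which gave 2338 regions on chromosome 17 of 72537 in all. The chromosome was selected on its peak counts, which were known to differ between the groups, so its counts, share and density are given as a description, with no test.

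The study used 6mA-IP-seq, in which fragmented genomic DNA is pulled down with an antibody against N6-methyladenine (6mA) and sequenced. MDA-MB-453, an established line of human breast cancer cells, was used, and both groups received 10 nM siRNA with Lipofectamine RNAiMAX for 48 h. The control group received a scrambled siRNA and the si-N6AMT1 group an siRNA against N6AMT1, which the study examined as a 6mA methyltransferase, with 2 immunoprecipitated libraries and 1 input in each group. The knockdown was transient and in 1 cell line, and its strength was not analysed here because the peak lists hold no expression values.

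6mA is adenine with a methyl group on its amino nitrogen, a mark that is common in bacterial DNA and scarce in human DNA. An antibody pulldown reports where such DNA collects as peaks of fragments over a local background, and not which adenine is modified. Chromosome 17 is short and gene-rich, and its long arm carries ERBB2, which encodes the receptor tyrosine kinase HER2 and is amplified together with its neighbours in some breast cancers. Its short arm and its distal long arm hold further genes that are lost or gained in breast tumours.

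Sequences at some of the strongest regions are shown first because the peaks of chromosome 17 fell into a few recurrent kinds of DNA. Each is the 200 bp around the highest summit of a region, read from the plus strand of GRCh37, the build of the peak lists (hg19). Capitals mark 5 or more repeats of CA or of TG with the alternation on either side, and runs of 20 or more purines or pyrimidines. The first set holds 2 of the 5 highest ranking regions that were called in all 4 libraries.
ASGR1, chr17:7078140-7078339: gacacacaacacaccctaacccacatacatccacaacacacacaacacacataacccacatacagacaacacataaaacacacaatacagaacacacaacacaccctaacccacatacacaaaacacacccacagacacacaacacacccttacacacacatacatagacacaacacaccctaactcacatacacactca
KCNJ12, chr17:21310575-21310774: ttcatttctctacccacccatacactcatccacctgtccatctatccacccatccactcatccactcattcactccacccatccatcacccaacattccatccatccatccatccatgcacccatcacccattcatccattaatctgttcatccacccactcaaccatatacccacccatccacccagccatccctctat
The windows from ASGR1 and KCNJ12 held 5 and 4 guanines in 200 bases. Both were long, imperfect tandem repeats, of adenine and cytosine in ASGR1 and of cytosine, adenine and thymine in KCNJ12. The second set holds a region from each group that was called in both of its libraries and in neither of the other group.
Only control, intergenic, chr17:69518266-69518465: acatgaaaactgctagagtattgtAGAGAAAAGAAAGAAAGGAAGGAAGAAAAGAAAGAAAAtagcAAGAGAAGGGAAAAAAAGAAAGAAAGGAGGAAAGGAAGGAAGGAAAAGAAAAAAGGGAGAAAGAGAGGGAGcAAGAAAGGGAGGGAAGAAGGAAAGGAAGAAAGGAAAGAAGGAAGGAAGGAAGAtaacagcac
Only si-N6AMT1, RPTOR, chr17:78901405-78901604: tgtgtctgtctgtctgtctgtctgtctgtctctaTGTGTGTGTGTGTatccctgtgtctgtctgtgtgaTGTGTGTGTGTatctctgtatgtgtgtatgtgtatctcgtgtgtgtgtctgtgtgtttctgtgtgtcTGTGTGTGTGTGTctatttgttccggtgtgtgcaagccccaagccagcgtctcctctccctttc
The region called only in control held a purine repeat, and the region called only in si-N6AMT1 a TG repeat in RPTOR. The RPTOR region ranked 3 among those called only in si-N6AMT1. The regions ranked 1 and 2, in ACTG1 and CA10, held none of the marked repeats or runs. CA or TG repeats were found in 11 of 173 regions called only in si-N6AMT1, against 9 of 41 called only in control. A TG repeat was thus not typical of the regions called only in si-N6AMT1. The third set comes from the genes around ERBB2 and holds regions called in all 4 libraries.
THRA, chr17:38243396-38243595: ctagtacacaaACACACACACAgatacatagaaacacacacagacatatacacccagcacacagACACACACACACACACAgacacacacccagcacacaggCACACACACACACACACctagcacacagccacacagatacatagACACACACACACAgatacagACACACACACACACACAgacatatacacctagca
IGFBP4, chr17:38601446-38601645: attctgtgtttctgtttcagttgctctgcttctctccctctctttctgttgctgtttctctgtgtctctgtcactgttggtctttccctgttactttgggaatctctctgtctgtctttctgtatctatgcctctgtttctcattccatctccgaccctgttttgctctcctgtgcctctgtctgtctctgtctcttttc
These held a CA repeat in THRA and pyrimidine-rich DNA without a long run in IGFBP4.

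Peaks were denser on chromosome 17 in both si-N6AMT1 libraries than in both control libraries. Outside assembly gaps there were 11.7 and 12.5 peaks per Mb in control, against 16.7 and 17.3 in si-N6AMT1. The means were 12.1 ± 0.545 (SD, n = 2) and 17.01 ± 0.409 (SD, n = 2), a ratio of 1.40, beside a ratio of 1.24 over the other autosomes together. The peaks covered 496 and 521 kb in control, against 690 and 702 kb in si-N6AMT1. The si-N6AMT1 lists were longer as a whole, so the share of autosomal peaks was also taken.

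Chromosome 17 held 3.10% and 3.02% of autosomal peaks in control, against 3.46% and 3.41% in si-N6AMT1. The si-N6AMT1 shares lay above both control shares, by 0.380 percentage points on average. With the same number of peaks kept from each library, those of highest −log10 p, the shares were 3.10%, 3.001%, 3.41% and 3.42% in the same order. Among the 5000 strongest autosomal peaks of each library they were 3.62%, 3.52%, 3.92% and 3.72%, so the order of the groups was the same at the top of the lists. Of the 22 autosomes, chromosome 17 had the highest ratio of si-N6AMT1 to control share in the full lists, at 1.12, and the second highest with equal numbers, after chromosome 19. The share was higher in both si-N6AMT1 libraries on 3 autosomes and lower in both on 6. In density, chromosome 17 ranked 12 and 13 of the autosomes in control, against 9 and 8 in si-N6AMT1.

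Depth differed between the libraries in the same direction as the peak counts. The lowest background in a list, which is its genome-wide level in fragments, was 1.05 and 1.36 in control, against 1.41 and 1.53 in si-N6AMT1. Median summit pileups on chromosome 17 were 16, 18, 18 and 18 fragments, so single calls rested on few fragments. The part of depth in the full counts was not tested beyond the setting with equal numbers of peaks.

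**Figure D1:**
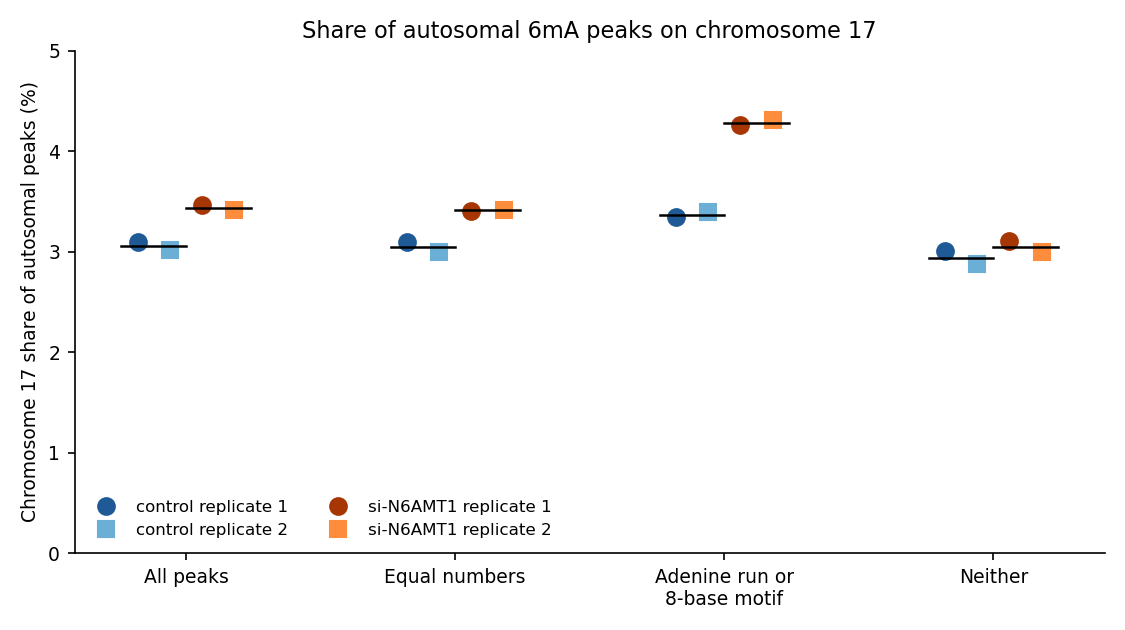
Chromosome 17 share of autosomal 6mA peaks (%, y axis) in each of the 4 libraries, for all peaks, for equal numbers of peaks, and for peaks with or without an adenine run (10 or more A or T in a row) or the 8-base motif CAGGCTGG at the summit. Points are libraries and bars are group means (n = 2). The group means lie at 3.06% and 3.44% for all peaks, at 3.37% and 4.28% for peaks with either sequence, and at 2.94% and 3.05% for peaks with neither.

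The higher density in si-N6AMT1 was spread along the chromosome. In 17 of 17 windows of 5 Mb, both si-N6AMT1 libraries had a higher density than both control libraries, which held in 74.3% of all autosomal windows, while 0.176% of those were lower in both. The ratio of the group means ran from 1.24 in window 13, at 60 to 65 Mb, to 1.62 in window 2, at 5 to 10 Mb. Window 2 held 61 and 64 control peaks and 101 and 101 si-N6AMT1 peaks. Window 13 held 78 and 80 control peaks and 100 and 96 si-N6AMT1 peaks. With equal numbers of peaks, 10 of 17 windows were higher in both si-N6AMT1 libraries and 0 were lower in both, beside 21.2% and 19.4% of all autosomal windows. The 10 windows included the first 2 of the short arm and the last 3 of the long arm, and windows 10 and 13 had a lower mean in si-N6AMT1 at this setting.

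**Figure D2:**
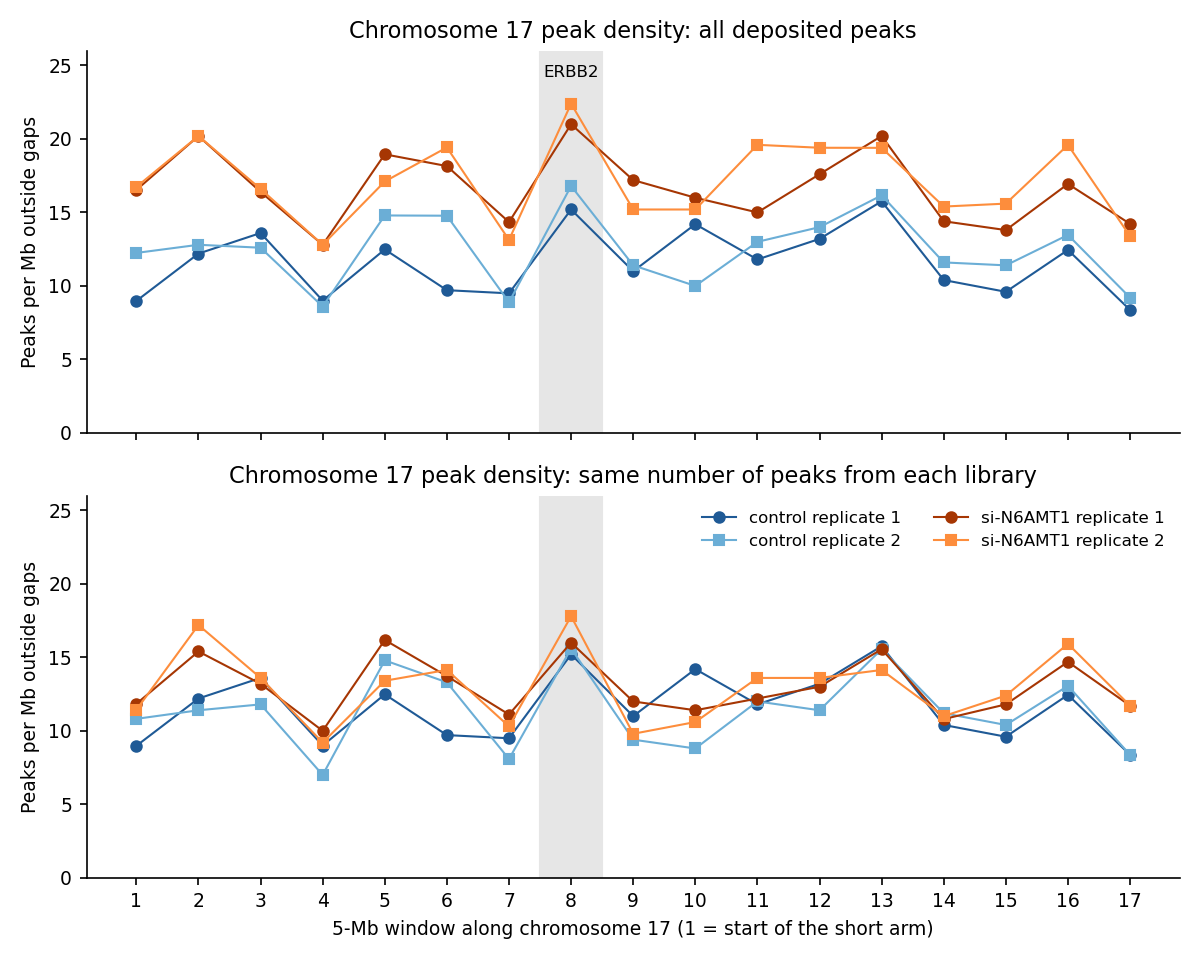
Peaks per Mb outside assembly gaps (y axis) in 17 consecutive windows of 5 Mb along chromosome 17 (x axis, numbered from the start of the short arm), for all deposited peaks and for equal numbers of peaks. Lines join the windows of 1 library, and the grey band marks the window with ERBB2, where density reached 15.2 and 16.8 in control, against 21.0 and 22.4 in si-N6AMT1.

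Density along the chromosome did not follow gene content. Over the 17 windows, the correlation of mean density with GC content was −0.23 and with protein-coding genes per Mb 0.05, given as a description of windows that share the same 4 libraries. Windows 2 and 8 held 135 and 141 protein-coding genes, and window 13, the densest in control replicate 1, held 51. The lowest densities of the 4 libraries were 8.37, 8.60, 12.8 and 12.8 peaks per Mb, in window 17 for control replicate 1 and in window 4 for the other 3.

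The 2 arms had densities close to each other. The short arm had 11.1 and 11.9 peaks per Mb in control, against 16.7 and 16.6 in si-N6AMT1, and the long arm 12.004 and 12.8 against 16.7 and 17.6. The long arm held 73.2% and 73.1% of the peaks of chromosome 17 in control, against 71.6% and 72.7% in si-N6AMT1. The difference of −0.96 percentage points gave an exact two-sided permutation p of 0.333 (adjusted p = 0.524), where 0.333 is the smallest value that 2 libraries against 2 can give. No exact test of this design can therefore pass 0.05, and p-values were adjusted by Benjamini-Hochberg over 11 tests.

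The window with ERBB2, at 35 to 40 Mb, was among the densest of the chromosome in each library. It held 76 and 84 peaks in control, against 105 and 112 in si-N6AMT1, and ranked first in 3 libraries and second in control replicate 1. Its share of the peaks of chromosome 17 was 8.32% and 8.62% in control, against 8.07% and 8.32% in si-N6AMT1, and the groups overlapped (difference −0.27 percentage points, exact permutation p = 0.667, adjusted p = 0.815). In a window of the same width centred on ERBB2 the groups did not overlap, with a difference of −0.52 percentage points (exact permutation p = 0.333, the smallest possible). For the window at 35 to 40 Mb the difference was −0.12 without control replicate 2 and −0.43 without control replicate 1. The median background at its summits was 1.198, 1.25, 1.23 and 1.25 times the genome-wide level of each library, ranking 7, 5, 3 and 4 of the 17 windows. Copy number was not measured, so the part of extra copies of the segment in the density of this window was not tested. Of its 180 merged regions, 39 (21.7%, beside 16.7% of all regions) were called in all 4 libraries. Of the same regions, 3 (1.67%, beside 2.62%) were called only in control, 10 (5.56%, beside 5.86%) only in the si-N6AMT1 group.

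ERBB2 itself (chr17:37844167-37886679, plus strand) had no peak in any library within 5000 bp of its body. MIEN1 and GRB7, its neighbours, which encode a membrane-anchored migration factor and an adaptor that binds the receptor, also had none. The nearest regions lay 18.8 kb upstream, called in si-N6AMT1 replicate 2, and 66.8 kb downstream, called in si-N6AMT1 replicate 1. They left a stretch of 128 kb without a region, beside a median distance between neighbouring regions of 20.45 kb. Stretches at least that long were found at 75 of 2336 gaps between regions of the chromosome and covered 13.1 Mb, so ERBB2 was not alone in lying in one.

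Of 26 genes listed around ERBB2, 6 and 7 had a peak within 5000 bp of the gene in control, against 9 and 12 in si-N6AMT1. The background is 35.3% and 36.3% of autosomal protein-coding genes in control, against 41.1% and 42% in si-N6AMT1, and 29.7%, 31.1%, 39.4% and 38.7% of the 1189 such genes of chromosome 17. The listed genes came to 23.1%, 26.9%, 34.6% and 46.2%. Neighbouring genes can share a peak. STARD3, TCAP, PNMT and PGAP3 were counted in si-N6AMT1 replicate 2 through 1 and the same peak, 18.8 kb upstream of ERBB2. Of the 26 genes, 4 had a peak in all 4 libraries and 11 in none. The 4 were IKZF3, a lymphoid zinc-finger transcription factor, THRA, a thyroid hormone receptor, RARA, a retinoic acid receptor, and IGFBP4, a secreted protein that binds insulin-like growth factors. CDK12, a kinase of transcription elongation, had 0 and 0 peaks in control, against 2 and 3 in si-N6AMT1. The CDK12 peaks lay in 5 regions, none of them called in both si-N6AMT1 libraries. TOP2A, the DNA topoisomerase of dividing cells, had 0 and 1 peaks in control, against 0 and 2 in si-N6AMT1.

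The genes of the segment held 24 merged regions, of which 8 were called in 2 or more libraries and 4 in all 4. The strongest lay in an intron of THRA (chr17:38243116-38243941), with a fold of the summit over its background of 14.2 and 10.2 in control, against 13.2 and 13.5 in si-N6AMT1. The region in an intron of IKZF3 (chr17:37967350-37967853) had folds of 10.47, 9.24, 9.07 and 7.91 in the same order of libraries. The region beyond the end of RARA (chr17:38514489-38514994), with its summit 828 bp from the gene, had folds of 7.65, 11.4, 7.80 and 8.90. The region in an intron of IGFBP4 (chr17:38600990-38601670) had folds of 7.42, 8.53, 7.60 and 6.35. At THRA, RARA and IGFBP4 the control and si-N6AMT1 values overlapped, and at IKZF3 both si-N6AMT1 values were below both control values. The summit pileups at IKZF3 were 23 and 24 fragments in control, against 30 and 26 in si-N6AMT1. Its backgrounds were 1.29 and 1.70 against 2.42 and 2.41. The regions called in 2 or 3 libraries lay in the promoter of PPP1R1B, a phosphatase inhibitor of dopamine signalling, in introns of IKZF3 and GSDMA, and in a second part of THRA.

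Among 12 genes of tumour suppression and genome maintenance, 5 and 5 had a peak in control, against 6 and 7 in si-N6AMT1. The shares of the list were 41.7% and 41.7% against 50% and 58.3%. Over the protein-coding genes of chromosome 17 they were 29.7% and 31.1% against 39.4% and 38.7%. These 12 genes are longer, with a median of 64.0 kb beside 16.9 kb over the chromosome. NCOR1, a nuclear receptor corepressor, had 8 and 7 peaks in control, against 6 and 6 in si-N6AMT1. NF1, which encodes the RAS-inactivating neurofibromin, had 3 and 7 against 6 and 7. BRIP1, a DNA repair helicase, had 6 and 4 against 4 and 9. NCOR1 had fewer peaks in both si-N6AMT1 libraries than in both control libraries, as had 1.69% of autosomal protein-coding genes and 9 of the 1189 of chromosome 17. Of the 16 regions at NCOR1, 2 were called in all 4 libraries. In both control and neither si-N6AMT1 libraries 0 were called, and in both si-N6AMT1 and neither control libraries 1. MAP2K4, a stress kinase, had 1 and 2 peaks in control, against 1 and 1 in si-N6AMT1. FLCN, RAD51C, PRKAR1A and AXIN2 had no peak in any library.

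Among 14 genes of the distal long arm that are gained in breast tumours, 5 and 6 had a peak in control, against 7 and 5 in si-N6AMT1. The shares of the list were 35.7% and 42.9% against 50% and 35.7%. Over the protein-coding genes of chromosome 17 they were 29.7% and 31.1% against 39.4% and 38.7%. These 14 genes have a median length of 61.8 kb, beside 16.9 kb over the chromosome. BCAS3, named for its amplification in breast cancer, had 11 and 15 peaks in control, against 21 and 23 in si-N6AMT1 within 5000 bp of its body. More peaks in both si-N6AMT1 libraries than in both control libraries were found at 7.16% of autosomal protein-coding genes and at 100 of the 1189 of chromosome 17. Both backgrounds include genes without a peak. Of the 39 regions at BCAS3, 4 were called in all 4 libraries. In both si-N6AMT1 and neither control libraries 1 was called, and in both control and neither si-N6AMT1 libraries 0. RPS6KB1, the S6 kinase, had 5 and 2 against 3 and 2, and PPM1D, a phosphatase of the DNA damage response, had 3 and 1 against 1 and 2. CLTC, PTRH2, TBX4, SPHK1 and TK1 had none. Of 9 keratin and STAT genes, 2 and 2 (22.2% and 22.2%) had a peak in control, against 3 and 3 (33.3% and 33.3%) in si-N6AMT1. STAT3 had 1, 1, 2 and 1 peaks and STAT5B 2, 1, 1 and 2, both encoding transcription factors of cytokine signalling. KRT10 had 0 and 0 peaks in control, against 1 and 1 in si-N6AMT1, which lay in 2 regions, neither called in both si-N6AMT1 libraries. The other keratin genes listed, KRT14, KRT15, KRT16, KRT17 and KRT19, had none, nor had STAT5A. The listed keratin and STAT genes are short, with a median of 6.12 kb over the 9, beside 16.9 kb over the protein-coding genes of the chromosome.

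The genes with the most merged regions in the body were long. BCAS3 (715 kb) held 38 regions, CEP112 (557 kb), a centrosomal protein gene, 36, and PPM1E (229 kb), a phosphatase gene, 19. TANC2 also held 19, ASIC2, which encodes an acid-sensing ion channel, 17, NCOR1 and NF1 16 each and ANKFN1 15. SSH2 also held 15 and was left out by alphabetical order. Per 100 kb, NCOR1 with 8.46 and PPM1E with 8.29 had the most of the 8, beside 3.01 over the chromosome, and ASIC2 had the fewest with 1.46. In the bodies of the 2 genes with the most regions, peaks were more numerous in both si-N6AMT1 libraries, at 11 and 14 against 21 and 22 in BCAS3 and 16 and 18 against 21 and 24 in CEP112. Regions called in both si-N6AMT1 and neither control libraries numbered 1 in BCAS3 and 3 in CEP112. The reverse pattern was found at 0 and 1. No region was called in the bodies of 718 of the 1189 genes. The same count for the other autosomes is not given here, so it is not shown whether this share differs from theirs.

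**Figure D3:**
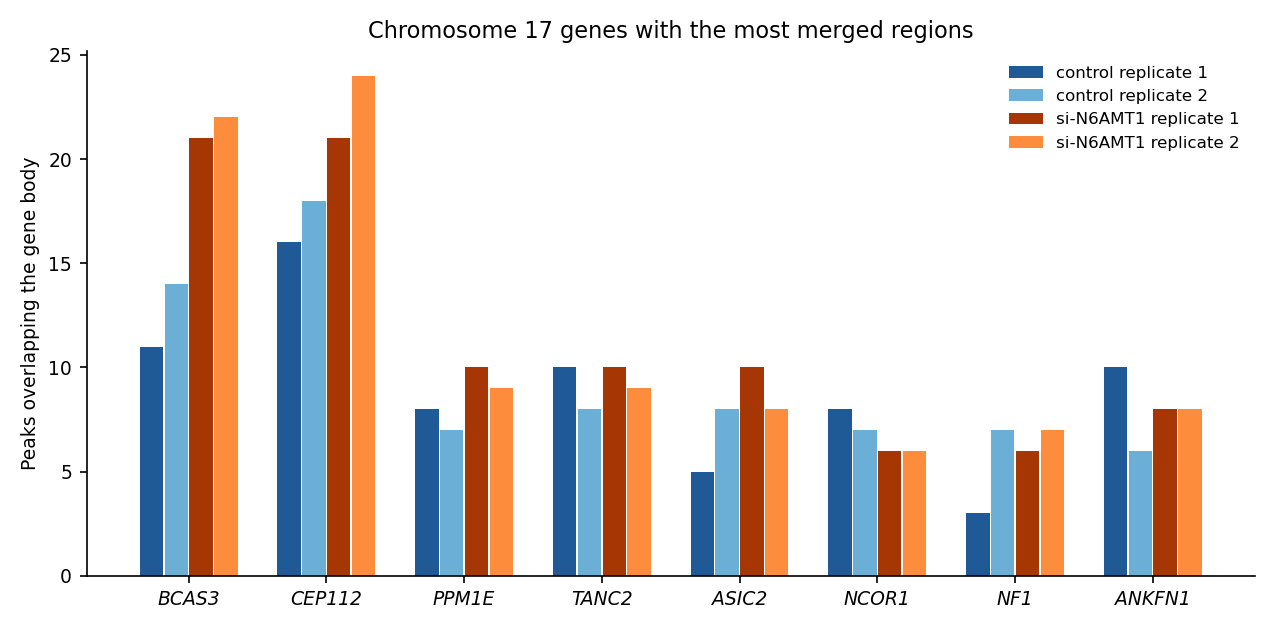
Peaks overlapping the gene body (y axis) in each of the 4 libraries for the 8 protein-coding genes of chromosome 17 with the most merged regions (x axis), where ANKFN1 was tied with SSH2, which is not shown. Bars are single libraries. BCAS3 and CEP112 stand above the other 6 genes, and the groups overlap or meet in ASIC2, TANC2, NF1 and ANKFN1.

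Most merged regions were found in a single library. Of the 2338 regions, 1205 (51.5%) were called in 1 library, 476 (20.4%) in 2, 264 (11.3%) in 3 and 393 (16.8%) in all 4. Over all regions of the series the shares were near these, at 49.6%, 20.7%, 13.0% and 16.7%. Called in both control libraries and in neither si-N6AMT1 library were 41 regions (1.75%, beside 2.62% of all regions). Called in both si-N6AMT1 libraries and in neither control library were 173 (7.40%, beside 5.86%). With equal numbers of peaks these counts were 63 (3.27%, beside 4.19% of all regions at this setting) and 108 (5.61%, beside 4.16%). Replicates of a group overlapped in 54.2% to 58.6% of their peaks (mean 56.0%), and libraries of different groups in 42.4% to 64.3% (mean 53.8%). With equal numbers the means were 57.8% and 54.2%. In the full lists, where the si-N6AMT1 lists were longer, the overlap across groups depended on direction. Of control peaks, 61.2% to 64.3% overlapped a peak of an si-N6AMT1 library, beside 58.6% and 55.3% for the other control library. Of si-N6AMT1 peaks, 42.4% to 45.7% overlapped a peak of a control library.

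The more libraries called a region, the stronger its peaks were. In control replicate 1 the median fold was 6.38 where 1 library called the region and 9.44 where all 4 did. The corresponding medians were 5.96 and 8.85 in control replicate 2, 6.18 and 9.07 in si-N6AMT1 replicate 1, and 5.93 and 8.58 in si-N6AMT1 replicate 2. The other autosomes showed the same rise. Their medians were 6.46 and 8.79, and 6.10 and 8.34, in the control libraries. In the si-N6AMT1 libraries they were 6.14 and 8.44, and 5.93 and 8.20. Over all peaks of the chromosome the median fold was 7.65 and 7.19 in control, against 6.99 and 6.73 in si-N6AMT1 (difference −0.56, exact permutation p = 0.333, adjusted p = 0.524). With equal numbers of peaks the difference was −0.09.

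Regions called in all 4 libraries differed little in strength between the groups. The median log2 ratio of si-N6AMT1 to control fold was −0.06 over the 393 regions of chromosome 17 and −0.05 over those of the other autosomes, while the median log2 ratio of replicate 1 to replicate 2 was 0.10 for control, and 0.07 for si-N6AMT1. Both si-N6AMT1 folds were above both control folds in 60 regions (15.3%, beside 16.9% of all autosomal regions of this kind) and below both in 93 (23.7%, beside 24.3%).

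**Figure D4:**
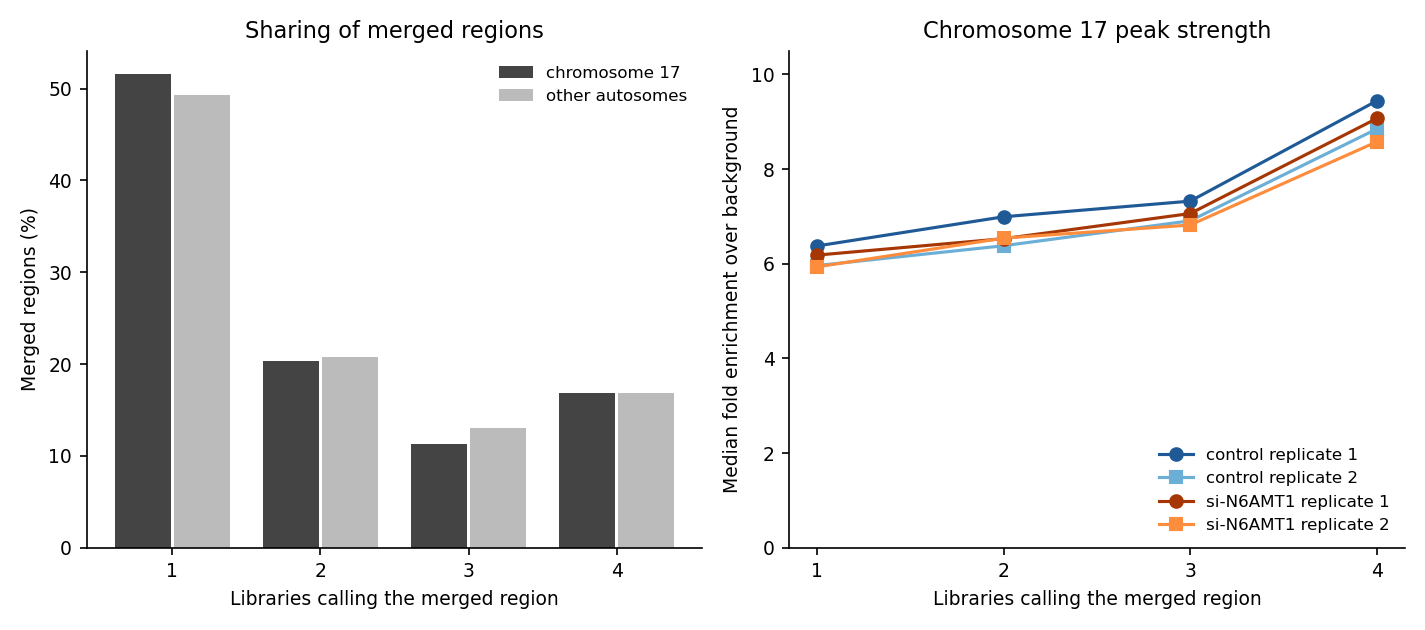
Left, share of merged regions (%, y axis) called in 1, 2, 3 or 4 libraries (x axis) on chromosome 17 and on the other autosomes. Right, median fold enrichment over background (y axis) of chromosome 17 peaks by the number of libraries that called their region, with 1 line per library, rising in each library from between 5.93 and 6.38 to between 8.58 and 9.44.

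The 5 highest ranking regions called in all 4 libraries had folds far above these medians. A region in an intron of CYGB, the cytoglobin gene (chr17:74543609-74544529), which also lies within PRCD, had folds of 27.3 and 21.2 in control, against 20.3 and 22.2 in si-N6AMT1. A region in KCNJ12, a potassium channel gene (chr17:21310288-21311410), had 22.7 and 16.6 against 15.9 and 16.5. KCNJ12 has near-identical copies, so the placement of its reads is uncertain. A region in an intron of ASGR1, a liver glycoprotein receptor gene (chr17:7077782-7080385), had 21.97 and 17.8 against 19.8 and 18.01. The region in an intron of MARCHF10, a ubiquitin ligase gene (chr17:60869720-60871804), had 24.9 and 15.3 against 16.6 and 14.0. The intergenic region nearest to KRT42P (chr17:39808008-39808695) had 19.4 and 16.1 against 13.7 and 12.9, and was the one of the 5 besides KCNJ12 with both si-N6AMT1 folds below both control folds. At KCNJ12, CYGB and ASGR1 and near KRT42P, summit pileups and backgrounds were higher in both si-N6AMT1 libraries than in both control libraries. The si-N6AMT1 libraries also had the higher depth. At MARCHF10 the backgrounds of the groups overlapped, and pileups were 58 and 45 fragments in control, against 47 and 44 in si-N6AMT1. Pileups at KCNJ12 were 79 and 70 fragments in control, against 92 and 91 in si-N6AMT1. Near KRT42P they were 49 and 48 against 51 and 51.

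The highest ranking regions called in 1 group had lower folds. Of those called only in control, the purine repeat at chr17:69518199-69518691 had folds of 9.24 and 7.34, the intergenic region at chr17:55302932-55303351 had 9.24 and 8.74, and a CA repeat in the noncoding gene CASC17 (chr17:69190403-69190805) had 8.69 and 8.80. Of those called only in si-N6AMT1, a region within the annotated span of ACTG1, a cytoplasmic actin gene (chr17:79487774-79488280), had 9.52 and 9.02. A region in CA10, a carbonic anhydrase-related gene (chr17:50061521-50062160), had 9.70 and 10.7. The TG repeat in RPTOR, a subunit of the mTOR complex (chr17:78901223-78901694), had 12.8 and 9.496. Over all 41 and 173 such regions the median folds were 7.32 and 7.19 in control, against 6.63 and 6.45 in si-N6AMT1, values between those of single-library and of shared regions.

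A few peaks stood on a high background. The intergenic peak at chr17:41399781-41400359 was called in all 4 libraries, with a background of 16.4 and 20.9 fragments in control, against 24.6 and 27.6 in si-N6AMT1, and had folds of 3.79, 3.97, 4.11 and 4.2004. Further peaks of high background lay in NPEPPSP1, a pseudogene with near-identical sequence elsewhere, so the placement of its reads is uncertain.

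By annotation, 58.3% of summits lay in introns, 36.7% in intergenic DNA, 3.71% in promoters and 1.37% in exons, as means of the 4 libraries. These elements make up 58.4%, 30.1%, 6.21% and 5.37% of the chromosome outside gaps. Exons thus held 0.256 and promoters 0.597 times the share of summits that their length gives, beside 0.239 and 0.701 on the other autosomes. Promoters, here within 1000 bp of a start site, held 4.92% and 2.87% of summits in control, against 3.46% and 3.57% in si-N6AMT1 (difference −0.39 percentage points, exact permutation p = 1, adjusted p = 1), and the difference was 0.64 without control replicate 1. Exons held 1.64% and 1.44% in control, against 1.31% and 1.11% in si-N6AMT1 (exact permutation p = 0.333, adjusted p = 0.524). For introns the exact permutation p was 1 (adjusted p = 1) and for intergenic DNA 0.667 (adjusted p = 0.815).

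Repeats of the kinds printed above recurred over the whole chromosome, and 2 further classes were counted. These were adenine runs, meaning 10 or more A or T in a row, and the motif CAGGCTGG or its reverse complement CCAGCCTG. In the 200 bp around each summit, adenine runs were found in 23.6% and 25.3% of control peaks and 31.8% and 33.3% of si-N6AMT1 peaks, beside 9.30% of all 200-bp tiles of the chromosome. CAGGCTGG was found in 14.2% and 13.9% against 17.9% and 19.99%, beside 15.1% of tiles. CA or TG repeats were found in 13.7% and 10.9% against 10.3% and 9.51%, beside 1.40% of tiles. Purine or pyrimidine runs without an adenine run were found in 30.1% and 29.3% against 27.1% and 26.7%, beside 2.79% of tiles. A window can hold several classes, and both strands were searched. Adenine runs and CAGGCTGG were more frequent in both si-N6AMT1 libraries, and the other classes more frequent in both control libraries, each with an exact permutation p of 0.333 (adjusted p = 0.524). With equal numbers of peaks the difference was 4.85 percentage points for adenine runs against 8.11 in the full lists, and 1.83 against 4.91 for CAGGCTGG. For purine runs it turned from −2.81 to 0.80. For CA or TG repeats it went from −2.37 to −1.33, where the groups overlapped (exact permutation p = 0.667), and it was −0.98 without control replicate 1. Over the other autosomes the full lists gave differences of 3.80 for adenine runs and 2.73 for CAGGCTGG. For CA or TG repeats the difference there was −2.21, near that on chromosome 17, and for purine runs −0.74.

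**Figure D5:**
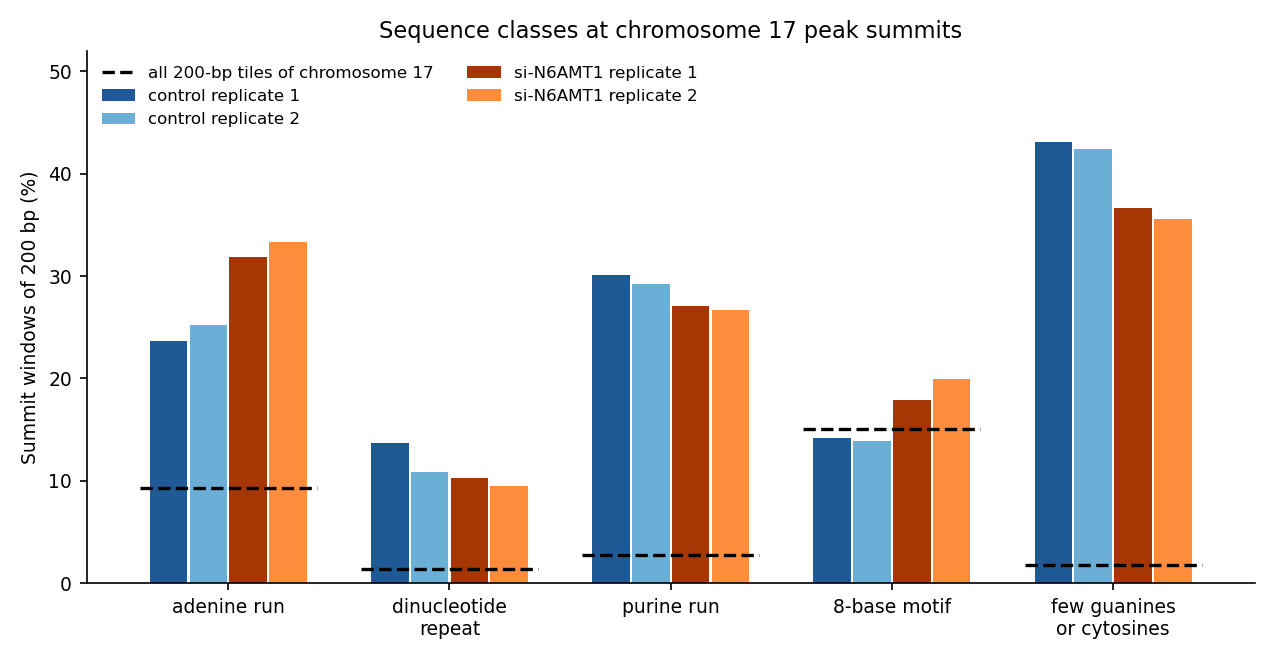
Share of 200-bp summit windows of chromosome 17 (%, y axis) that hold each sequence class (x axis) in the 4 libraries, with the share of all 200-bp tiles of the chromosome as a dashed line. The dinucleotide repeat is CA or TG, the purine run also counts pyrimidine runs, the 8-base motif is CAGGCTGG, and the last class has fewer than 20 guanines or fewer than 20 cytosines. Bars are single libraries, and the 8-base motif is the class that lies near the tile share of 15.1%.

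The printed windows with few guanines led to a further count, made after they had been read. Windows with fewer than 20 guanines or fewer than 20 cytosines made up 43.1% and 42.4% of control peaks and 36.7% and 35.6% of si-N6AMT1 peaks on chromosome 17, beside 1.80% of tiles. In regions called in all 4 libraries this share was 66.1%, 64.5%, 66.6% and 67.0% in the 4 libraries, and in regions called in 1 library 12.02%, 15.4%, 15.7% and 13.6%. On the other autosomes it lay between 53.9% and 54.1% where all 4 libraries called the region. The shared peaks of chromosome 17 thus lay mostly on DNA that was poor in guanine or in cytosine.

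Adenine runs and CAGGCTGG had the opposite relation to sharing. Adenine runs were found in 38.3%, 42.8%, 46.9% and 48.7% of peaks that 1 library called, and in 12.7%, 12.3%, 12.7% and 12.6% of peaks in regions that all 4 called. CAGGCTGG fell in the same way from 26.2%, 23.4%, 27.1% and 33.0% to 6.33%, 6.05%, 5.82% and 4.53%. Of the 173 regions called only in si-N6AMT1, 72 (41.6%) held an adenine run and 47 (27.2%) CAGGCTGG. Of the 41 called only in control, 8 and 6 did, and of the 393 called in all 4, 54 (13.7%) and 17 (4.33%).

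The peaks with either of these sequences differed more between the groups than the rest. On chromosome 17, 267 and 297 control peaks and 500 and 538 si-N6AMT1 peaks held an adenine run or CAGGCTGG, a ratio of means of 1.84. The remaining peaks numbered 647 and 677 against 801 and 808, a ratio of 1.22, beside 1.43 and 1.17 for the same kinds of peak on the other autosomes. With equal numbers of peaks the ratios on chromosome 17 were 1.31 with either sequence and 1.04 with neither. Among autosomal peaks with either sequence, chromosome 17 held 3.34% and 3.39% in control, against 4.26% and 4.31% in si-N6AMT1. Among those with neither it held 3.01% and 2.88% against 3.10% and 2.997%, where the groups overlapped. With equal numbers the shares with neither were 3.01% and 2.92% against 3.20% and 3.24%, which did not overlap. The part of these sequences in the share of the chromosome was not tested further.

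The si-N6AMT1 to control ratio of share was also set beside the base makeup of the autosomes. Chromosome 17 ranked second after chromosome 19 in the share of tiles with an adenine run and in that with CAGGCTGG. Over the 22 autosomes, the ratio at equal numbers had a Pearson correlation of 0.86 with the tile share of adenine runs, 0.88 with that of CAGGCTGG and 0.89 with GC content. In the full lists the correlation was 0.71 with CAGGCTGG and 0.63 with GC content, and chromosome 20, the fifth autosome in both features, had the lowest ratio, 0.958. These are descriptions over chromosomes that share the same 4 libraries, and the 3 features rise together. GC content was 45.5% on chromosome 17, the third highest of the autosomes.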

How the data were processed

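6mA-IP-seq libraries of control and si-N6AMT1 cells were grouped by their titles. By the study methods, the authors trimmed the paired-end reads (Solexa pipeline), removed low-quality reads (Trimmomatic), mapped the rest to hg19 (Bowtie2 2.3.5) and deduplicated the alignments (SAMtools 1.9). MACS2 was then run on every immunoprecipitated library by itself, with 1e-05 as the p-value limit. Which input went into a call is not given in the sources used here, and no input files were used. The deposited lists give the fold enrichment of each summit, a ratio of pileup to local background with 1 added to each. The deposited −log10 p and −log10 q columns describe the summit, and the deposited score is derived from −log10 p. Removal of duplicates caps identical fragments, so pileups over high-copy DNA can be understated.

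The pileup and background of each summit were recovered from the fold and −log10 p, and 100% of pileups were whole within 0.02. Read totals were not used here. On simulated data 100% of 5000 pileups and 200 of 200 planted regions of each kind were recovered. Peaks sharing at least 1 bp were merged into regions with Python 3.11.15 (pandas 2.3.3, numpy 2.4.6, scipy 1.17.1, matplotlib 3.10.9, pysam 0.24.0, samtools 1.23.1). Density was taken per 5 Mb window outside assembly gaps. For equal numbers, every list was cut to the length of the shortest one, by −log10 p. Sequence came from GRCh37 and genes from GENCODE v44 lifted to GRCh37. Summits within 1000 bp of a start site counted as promoter, and the others as exon, intron or intergenic, in that order. Annotations of repeats or enhancers were not used here. The sequences of some named regions are not reported here.

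Groups were compared with exact permutation tests, two-sided, which enumerate 6 assignments of the 4 libraries. The study calls the replicates biological. Chromosome 17, the gene lists and the settings were chosen with earlier results of these data known. Named genes were 4 lists, counted within 5000 bp of the gene, and the 8 protein-coding genes with the most regions. Named regions were the first 5 called in all 4 libraries and the first 3 called only in each group, ranked on their lowest percentile of −log10 q within a list, and those at ERBB2 segment genes called in 2 or more libraries. Results were recomputed at −log10 q of 5 or more, with equal numbers, with 50% overlap, with merging within 100 bp, with other windows and promoters, with a replicate block and without each library in turn.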

Additional observations from a re-analysis of the deposited data

How the results depend on the processing

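The differences given here are si-N6AMT1 minus control. The chromosome 17 share was higher by 0.380 percentage points in the full lists, and by 0.339 to 0.422 with 1 library left out. In 2 alternatives chosen after seeing the data, the difference was 0.108 without peaks holding an adenine run or CAGGCTGG and 0.280 among the 10000 strongest autosomal peaks. With equal numbers of peaks the density difference was 1.39 per Mb in place of 4.88, which follows from fewer peaks being kept, the regions called only in control numbered 63 in place of 41 and those called only in si-N6AMT1 108 in place of 173. The purine run difference was 0.801 percentage points with equal numbers, also chosen after seeing the data, in place of −2.81, and the cause was not tested. The promoter difference was −0.387 percentage points, and −1.41 to 0.638 with 1 library left out, where leaving out control replicate 1 reversed it. A required overlap of 50% of each peak lowered the mean overlap between replicates to 51.9% from 56.0%. With 1 library left out, regions called only in control numbered 91 to 242 and only in si-N6AMT1 246 to 608, which follows from fewer libraries being needed for a call, and regions called in every remaining library 442 to 480. All other results kept their direction under the alternatives run, including a −log10 q of at least 5.

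Replicate numbers are shared by the groups in the titles. The correlation of the deviations of same-numbered libraries was 0.04 over the 2338 regions and 0.35 over the shares of the 17 windows, so with only 2 pairs the numbers were not taken as a pairing. A replicate block over the 2 pairs leaves each difference as it was (8.11 percentage points for adenine runs, −0.27 for the ERBB2 window), and its smallest exact p is 0.5, so it says nothing about stability. With 2 libraries in a group no test could pass 0.05. Summit pileups of 16 to 18 fragments limit single calls, and a region without a call is not shown to lack signal.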
